A study of Mus musculus with 6 samples.

Results

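Neutrophil and mast cell genes were read on microarrays of mouse hearts after myocardial infarction. They are 5 genes of neutrophil granules and cytosol (S100a8, S100a9, Ngp, Camp and Lcn2) and 4 genes of mast cell granule proteases (Cpa3, Cma1, Mcpt4 and Tpsb2). Members were chosen by the gene name that the array design gives to a probe, which yields 11 probes for 9 genes out of 55661 gene probes used on the arrays. A probe that the scanner software called well above background on 3 or more arrays was found for 8 of the 9 genes, and these are among the 22989 genes tested.

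The hearts came from male C57BL/6 mice, 8 weeks old, 21 days after ligation of the left anterior descending coronary artery, so every sample is infarcted and none is a sham or an untreated heart. The antagomir group (3 samples) had tail vein injections of an antagomir to miR-433 (80 mg/kg on 3 consecutive days), which is a modified oligonucleotide complementary to the microRNA. The control group (3 samples) received a scrambled oligonucleotide at the same dose, and the study asked whether blocking miR-433 limits fibrosis of the infarcted heart. The labels give neither the part of the heart that was taken nor whether each array holds a separate mouse, so p-values measure only the spread between these 6 samples, which may be technical.

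Neutrophils are short-lived white blood cells that enter an infarct early from the blood. S100A8 and S100A9 pair as calprotectin, the main protein of their cytosol and a ligand of Toll-like receptor 4, while cathelicidin (Camp), neutrophilic granule protein (Ngp) and lipocalin 2 (Lcn2) are made during granule formation in the bone marrow, and lipocalin 2 is also made by injured tissue. Mast cells are long-lived tissue cells that reside in the heart, and their granules hold carboxypeptidase A3 (Cpa3), the chymases encoded by Cma1 and Mcpt4, and the tryptase encoded by Tpsb2. Heart chymase can convert angiotensin I to angiotensin II.

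The treatment was directed at miR-433, and both mature strands are shown because the antagomir is named for this microRNA without the strand. Sequences are from RefSeq (GRCm38.p6), 5′ to 3′, with the seed, bases 2 to 8, in capitals. They lie at chr12:109591729-109591750 and chr12:109591781-109591802.

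mmu-miR-433-5p: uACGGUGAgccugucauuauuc

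mmu-miR-433-3p: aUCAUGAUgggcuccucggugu

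Each array value rests on a probe of 60 bases. Those of 3 members whose readout differs most in kind are shown, with positions on mm9, the build of the array design. S100a8 was measured on every array and had the widest range between arrays of the members tested, at chr3:90473778-90473837. Ngp was well above background on 2 antagomir arrays only, and its probe spans chr9:110324266-110324814, a stretch of 549 bases, longer than the probe. Cma1 was near background, and its probe spans 1060 bases, chr14:56561491-56562550. The bases are given 5′ to 3′ as in the array design, with no part in capitals.

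S100a8 probe: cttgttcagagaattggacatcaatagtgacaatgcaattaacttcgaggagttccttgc

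Ngp probe: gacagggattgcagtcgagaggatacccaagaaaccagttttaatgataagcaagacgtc

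Cma1 probe: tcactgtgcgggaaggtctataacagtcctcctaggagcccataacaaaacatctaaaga

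The other members lie at chr3:90496573-90496632 (S100a9), chr9:109749911-109749970 (Camp), chr2:32240199-32240258 (Lcn2), chr3:20115674-20115733 (Cpa3), chr14:56678589-56678648 (Mcpt4) and chr17:25504819-25504878 (Tpsb2). S100a8 and S100a9 are close neighbours, with 22.7 kb between their probes. Cma1 and Mcpt4 share a protease cluster, with 116 kb between their probes, and Camp and Ngp lie 574 kb apart.

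Levels are given as scaled signals, in which the 75th percentile of an array's gene probes is 100, and differences are log2 values of the antagomir group minus the control group. The scaled signal is for comparing arrays within 1 probe, not genes with each other. The share of gene spots called above background was 55.2% to 58.5% on 5 arrays and 73.6% on antagomir array 3, which stands apart at the dim end. A single slide, scanned in 1 pass, carried the 6 arrays. Cardiomyocyte markers were bright on every array: the summed scaled signal of 7 of 7 ran from 254539 to 297488 in the controls and from 302461 to 328974 in the antagomir group. Of 5 fibroblast markers, 5 were tested and 5 were below 0, with a median of -2.82, and 3 of them (Col1a1, Col3a1 and Postn) had an unadjusted p under 0.05 but none an adjusted one. Their mean level was -1.39 to -2.48 relative to the control mean on the antagomir arrays, and the part of this in the members' values was not tested.

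S100a8, S100a9 and Camp set antagomir array 2 apart from the other 5 arrays, and S100a8 and S100a9 spanned 75.7-fold and 72.7-fold among the 6 arrays. No neutrophil or mast cell gene passed the test between the treatments. Of the 8 members tested, 0 passed an adjusted p under 0.05, against 3 of all genes, 0.013%, all 3 higher. At an unadjusted p under 0.05 there was 1 member, Cpa3, against 7.21% of all genes, 3.05% higher and 4.16% lower. A difference of at least 2-fold upward was found in 4 members (S100a8, S100a9, Camp and Cpa3) and in 2.88% of all genes. A log2 difference above 0 was found in 8 of 8 members and in 62.6% of all genes, with a median of 1.01 for the members and 0.09 for all genes. Only 45.8% of all genes were above 0 with quantile scaling and 13.0% with median scaling. The 3 genes that passed were Gngt1, Defa-ps1 and an intergenic transcript, named after their values were seen. Each was well above background on only 3 of the 6 arrays, the fewest that the test allowed, with differences from 4.18 to 5.55.

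S100a8, one part of calprotectin, had scaled signals of 66.4, 7.48 and 16.9 on control arrays 1, 2 and 3, and of 5.27, 399 and 55.7 on antagomir arrays 1, 2 and 3. The antagomir group holds both the highest and the lowest of the 6 values, so the groups overlap. The mean log2 level was -2.30 ± 1.59 (SD, n = 3) in the controls and -1.03 ± 3.13 (SD, n = 3) with the antagomir. That gives a difference of 1.27 with a 95% interval from -2.78 to 5.31 (limma, adjusted p = 0.788). Without antagomir array 2 the difference was -0.25, and with array weights, which count less any array that fits its group poorly, it was -1.48.

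S100a9, its partner, had scaled signals of 172, 25.1 and 59.8 on the control arrays and of 19.6, 1428 and 166 on the antagomir arrays. The arrays fall in the same order as for S100a8, from antagomir array 2 down through control 1, antagomir 3, control 3 and control 2 to antagomir 1. The range from the lowest to the highest array was wider than in 99.8% of the genes tested, both for S100a8 and for S100a9. The difference between groups was 1.39 with an interval from -2.52 to 5.30 (limma, adjusted p = 0.766). It was -0.16 without antagomir array 2 and -1.12 with array weights.

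Camp encodes cathelicidin, an antimicrobial peptide stored in specific granules. Its scaled signals were 15.5, 16.6 and 17.2 on the control arrays and 20.8, 197 and 23.0 on the antagomir arrays. All antagomir values lie above all control values, which was so for 8.78% of all genes tested, but antagomir arrays 1 and 3 are close to the controls and array 2 is 8.55 times the next array. A second Camp probe, which shares 40 bases with the first, read 14.8, 12.3 and 14.7 on the controls against 15.1, 108 and 18.6. The difference was 1.47 with an interval from -0.65 to 3.60 for the first probe (limma, adjusted p = 0.691), and 0.42 without antagomir array 2. In the authors' deposited table the first probe has its lowest log2 value, 5.62, on antagomir array 3, against 6.11 to 6.24 on the controls, so the groups overlap there.

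Ngp, a protein of the same granules, was not well above background on any control array or on antagomir array 1. Its scaled signals were 1.13, 0.709 and 0.747 on the controls and 0.945, 23.9 and 13.3 on the antagomir arrays. The probe was thus measured on 2 arrays and was not tested. The antagomir mean was 1.97-fold higher when each control array was set to its lowest signal called above background, with all 3 antagomir arrays in the mean. Antagomir array 1 kept its measured value there, itself not well above background, so this figure is not a lower bound. With no filter the measured difference was 2.99 (limma, adjusted p = 0.603 over every probe). Antagomir array 3 also read high for many other dim probes. Of 20936 probes dim on the controls and antagomir array 1, 44.0% were well above background on antagomir array 3. On antagomir array 2 it was 3.38%. The values of Mmp8, Ltf, Retnlg and Ager on antagomir array 3, given below, carry the same limit. The Ngp probe is 63.3% purines, and of the 4206 probes with at least 60% purines that were dim on the controls and on antagomir array 1, 82.5% were well above background on antagomir array 3 and 3.14% on antagomir array 2. The part of this in the Ngp value was not tested.

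Lcn2 differed from the other neutrophil genes in its small range. Lipocalin 2 binds the iron carriers of bacteria. Its scaled signals were 425, 332 and 607 on the controls and 529, 742 and 445 on the antagomir arrays, highest on antagomir array 2 by a factor of only 1.22. The groups overlap, and the highest value was 2.24 times the lowest. The difference was 0.34 with an interval from -0.38 to 1.07 (limma, adjusted p = 0.710), -0.12 with slide row as a block, and -0.13 with median scaling, which also takes the median of all genes from 0.09 to -0.38. Relative to the median of all genes it was 0.25, necessarily the same in both scalings, since each subtracts 1 value per array.

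**Figure D1:**
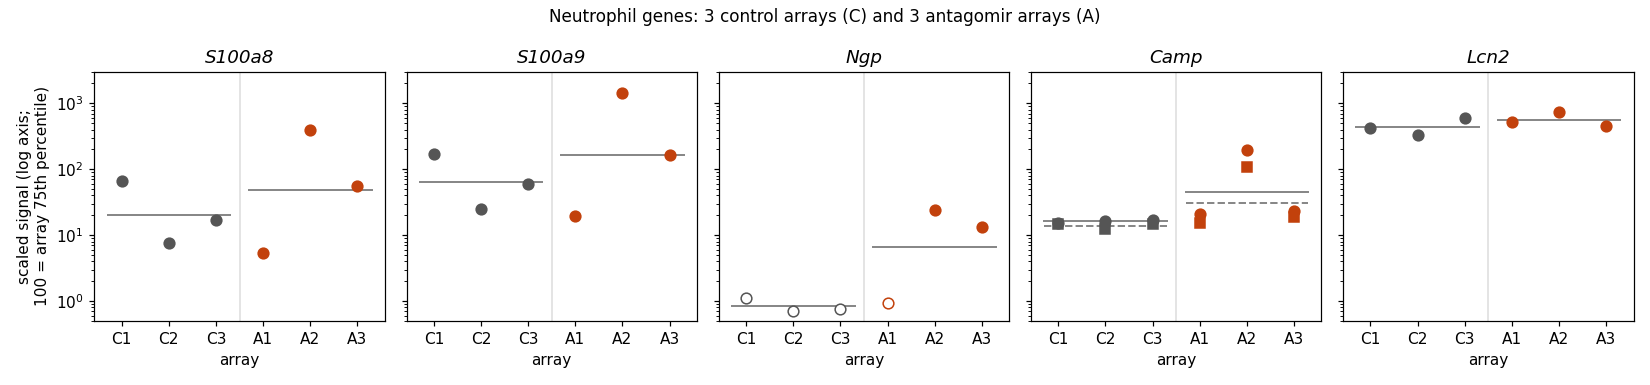
Scaled signal on a log axis (100 is the array's 75th percentile) of the 5 neutrophil genes on control arrays C1 to C3 (grey) and antagomir arrays A1 to A3 (orange). Open points are not well above background, squares are the second Camp probe, and horizontal lines are geometric means of a group (dashed for the second probe). S100a8 and S100a9 reach 399 and 1428 on A2 and are lowest on A1, while Lcn2 stays between 332 and 742.

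Over the 4 neutrophil genes tested, the median range between the highest and the lowest array was 4.93 on the log2 scale, 30.4-fold, against 0.81 for all genes. S100a8, S100a9 and Camp were highest on antagomir array 2 by at least 1 on the log2 scale, as were 1.54% of all genes. Relative to the control mean, antagomir array 2 was 19.6-fold higher for S100a8, 22.4-fold for S100a9, 12.0-fold for Camp and 1.68-fold for Lcn2. No part of this contrast between single arrays has a replicate. In whole tissue, more neutrophils and more RNA per neutrophil cannot be told apart.

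Markers of other blood cells were high on the same array. The summed scaled signal of 5 of 5 leukocyte markers (Ptprc, Coro1a, Laptm5, Itgb2 and Cd52) ran from 1225 to 1702 on the controls, and was 5263 on antagomir array 2 against 648 and 649 on antagomir arrays 1 and 3. The 8 of 9 lymphocyte markers tested summed to 471 to 551 on the controls, and to 1893 on antagomir array 2 against 499 and 573. Of 5 red cell markers, 3 were tested, led by the globin gene Hba-a1, and they summed to 41351 on antagomir array 2 against 5099 to 14251 on the controls and 3776 and 11839 on the other antagomir arrays. Hbb-b1 was not matched on the array. The 11 of 12 macrophage and monocyte markers tested differed less. They summed to 12306 on antagomir array 2 against 8294 to 8915 on the controls and 7428 and 5540 on antagomir arrays 1 and 3. Between groups 9 of these 11 were below 0. The 4 eosinophil and basophil markers tested summed to 245 on antagomir array 2, against 28.7 to 46.2 on the controls and 34.6 and 42.4. The part of blood or inflammatory cells in the S100a8 and S100a9 values was not tested.

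The atrial markers Sln, Myl4 and Myl7 were also high on antagomir arrays 2 and 3. Sln read 6.19, 22.7 and 145 on the controls and 36.3, 3430 and 9933 on the antagomir arrays. Nppa, the fourth marker, had a difference of -1.71. All 4 were tested and summed to 39333 to 63248 on the controls and 3296 to 81431 on the antagomir arrays, a sum to which Sln added little on the controls. Relative to the control mean, their mean level was -0.93, 4.24 and 5.57 on antagomir arrays 1, 2 and 3. On the controls it ran from -1.30 to 1.66. The part of the sampled heart region in the members' values was not tested.

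**Figure D2:**
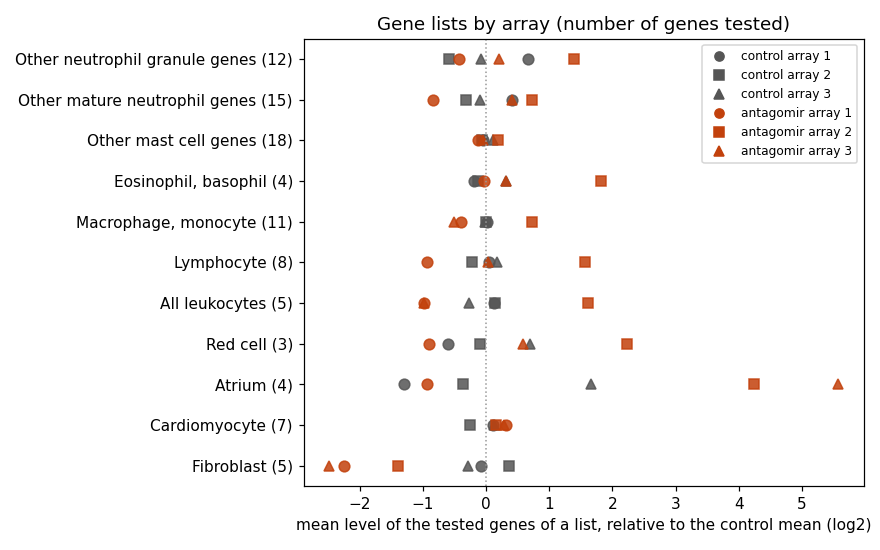
Mean level of the tested genes of a list on each array, relative to the mean of the 3 control arrays (log2), with the number of genes tested in brackets. Grey marks are control arrays and orange marks antagomir arrays. Antagomir array 2 (orange square) lies furthest right for neutrophil granule genes at 1.39, lymphocyte markers at 1.57, all leukocytes at 1.62 and red cells at 2.23. It does so too for eosinophil and basophil markers at 1.82, and for macrophage and monocyte markers at 0.73.

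Other granule genes of neutrophils were mixed. Of 19 on the list, 12 were tested, with 0 at an unadjusted p under 0.05. Between groups 7 were above and 5 below 0, with a median difference of 0.26. Relative to the control mean, their mean level was 1.39 on antagomir array 2 and -0.43 and 0.20 on antagomir arrays 1 and 3. Of the 12, 2 were highest on antagomir array 2 by at least 1 on the log2 scale, as were 1.54% of all genes. Chil3 read 224 on that array, against 6.73 to 30.1 on the controls and 7.23 and 13.6 on antagomir arrays 1 and 3. Mpo, the myeloperoxidase of primary granules, read 3.21, 2.15 and 3.72 on the controls and 4.37, 42.8 and 4.91 on the antagomir arrays. That is the same shape as Camp, with a difference of 1.72 (limma, adjusted p = 0.691). Mmp8, the neutrophil collagenase, had a difference of 1.74, with antagomir arrays 2 and 3 at 9.98 and 17.6 and control array 1 at 7.88. Its other arrays read 0.713, 0.742 and 0.878. Unlike Camp, Mpo and Mmp8 were each well above background on only 3 arrays, 1 control and 2 antagomir. The smallest p values of the list were for Mgst1, a glutathione transferase of many tissues, with a difference of 0.78, and Serpinb1a, an inhibitor of neutrophil elastase, at -0.93. Ltf, the lactoferrin of specific granules, was not tested but read 74.0 on antagomir array 2 and 8.91 on antagomir array 3, against 0.723 to 1.65 on the controls and 1.11 on antagomir array 1. It was chosen for mention after its values were seen.

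Of 13 neutrophil markers, which include the 5 members, 10 were tested, 8 above and 2 below 0 with a median of 1.33. Above 0 were 62.6% of all genes. Highest on antagomir array 2 by at least 1 on the log2 scale were 5, against 1.54% of all genes. These 5 are the members S100a8, S100a9 and Camp, and Mpo and Retnlg. As the 4 members tested are among the 10 markers, the list is not independent of them. The mean level of the 10 markers on antagomir array 2 was 2.43 above the control mean. Elane, the neutrophil elastase, and Csf3r, the receptor for granulocyte colony-stimulating factor, are the 2 below 0. Elane read 153, 58.1 and 101 on the controls and 87.2, 82.6 and 95.7 on the antagomir arrays. Csf3r stayed between 11067 and 13884 on all 6 arrays. The 10 markers tested summed to 11922 to 14328 on the controls and 11737 to 14574 on the antagomir arrays, a sum that Csf3r dominates.

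Among other genes of mature neutrophils, 15 of 26 were tested, 8 above and 7 below 0 with a median of 0.09. At an unadjusted p under 0.05 there was 1, Clec4d, a C-type lectin of myeloid cells, with a difference of -1.35 and signals of 258, 127 and 115 on the controls against 35.1, 125 and 51.6. The next smallest p values were for Stfa3, a stefin, at 0.87, Lrg1, a granule glycoprotein that endothelium also makes, at 0.61, and Padi4, which citrullinates histones in neutrophil traps, at -1.07. Retnlg, a resistin-like protein of neutrophils, was likewise high, with 66.4 on antagomir array 2 and 17.4 on antagomir array 3, which read high for many dim probes. It read 1.96 to 7.29 on the controls and 1.49 on antagomir array 1, and was well above background on 4 arrays, 2 of each group. Ly6g was not matched on the array.

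Receptors for the neutrophil proteins gave 2 of 5 tested genes above 0, with a median of -0.35. Tlr4, the receptor of calprotectin, read 146, 200 and 143 on the controls and 113, 134 and 101 on the antagomir arrays, without overlap, as 6.93% of genes did in this direction. Its difference was -0.49 (SE 0.20; limma, adjusted p = 0.691). Bsg, which also binds calprotectin, was at 0.47 without overlap in the other direction, as 8.78% of genes were (at or below 0 with median scaling). Cd36, a further binding partner, was at 0.37 (-0.10 with median scaling), and Slc22a17, a lipocalin 2 receptor, at -0.46. Ager, a further calprotectin receptor, was well above background on 1 array, antagomir array 3, where it read 27.1, and is mentioned after its values were seen.

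Genes that draw or sustain neutrophils gave 2 of 7 tested above 0, with a median of -0.37. Csf1, a growth factor of the myeloid lineage, was at -0.42 without overlap, as 6.93% of all genes were in this direction. The chemokine Cxcl5 was at -1.84, where antagomir array 3 read 6.12 against 66.8 to 162 on the controls. Cxcl12 was at -0.37 and Il6 at -1.29 (0.05 with slide row as a block). None of these lists held a gene past the adjusted threshold.

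Mast cell genes varied far less between arrays than S100a8 and S100a9, and 2 of the 4, Cpa3 and Cma1, were near background. Their median difference was 0.71, with all 4 above 0 in the main scaling and 3 above 0 with quantile or median scaling. That median was 0.23 with quantile scaling and in the authors' deposited table, 0.12 with normexp and quantile scaling, and 0.24 with median scaling. Their median range between arrays was 1.78 on the log2 scale, 3.44-fold, against 0.81 for all genes. Control array 2 was the lowest array for Cpa3, Cma1 and Mcpt4, as for 36.7% of all genes, and antagomir array 3 the highest for Cma1, Mcpt4 and Tpsb2, as for 28.1% of all genes.

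Cpa3, a carboxypeptidase held in mast cell granules, had scaled signals of 8.28, 2.85 and 5.99 on the controls and 8.78, 13.5 and 12.4 on the antagomir arrays. All antagomir values lie above all control values, as for 8.78% of all genes tested. Antagomir array 1 is close to control array 1, and control array 2 was not well above background. The mean log2 level was -4.26 ± 0.79 (SD, n = 3) in the controls and -3.14 ± 0.33 (SD, n = 3) with the antagomir. The difference was 1.13 with an interval from 0.10 to 2.15 (limma, unadjusted p = 0.036 and adjusted p = 0.674). With quantile scaling it was 0.32. In the authors' deposited table the log2 values of Cpa3 were 5.31, 3.86 and 4.83 on the controls and 5.38, 5.95 and 3.64 on the antagomir arrays, so that antagomir array 3 becomes the lowest and the groups overlap.

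Cma1, which encodes a chymase, had scaled signals of 4.86, 2.16 and 3.01 on the controls and 4.63, 4.48 and 9.84 on the antagomir arrays. Only control array 1 and antagomir arrays 2 and 3 were well above background. The difference was 0.90 with an interval from -0.15 to 1.94 (limma, adjusted p = 0.691), and -0.02 with quantile scaling and in the authors' deposited table. On antagomir array 3 the lowest raw signal called well above background was 30.6, against 14.3 to 15.4 on the other arrays, and Cma1 read 39.0 there before scaling. The part of that array's dim end in the Cma1 value was not tested.

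Mcpt4, the other chymase gene, was well above background on every array. It read 23.4, 16.03 and 23.4 on the controls and 33.3, 18.8 and 41.6 on the antagomir arrays. Antagomir arrays 1 and 3 exceed all controls, and antagomir array 2, where neutrophil genes peak, lies among them. The difference was 0.52 with an interval from -0.30 to 1.35 (limma, adjusted p = 0.691), and 0.05 with median scaling.

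Tpsb2, the tryptase gene, read 27.5, 30.9 and 26.9 on the controls and 32.3, 24.4 and 44.5 on the antagomir arrays, so that antagomir array 2 was the lowest and antagomir array 3 the highest of all. The difference was 0.21 with an interval from -0.38 to 0.80 (limma, adjusted p = 0.768). It was -0.02 without antagomir array 3 and -0.26 with median scaling, or 0.11 relative to the median of all genes. A second probe, 266 bases away, was well above background on 2 arrays and was not tested. It read 4.22, 1.95 and 3.87 on the controls and 1.27, 3.92 and 14.7 on the antagomir arrays, and its difference was 0.40 here and -0.19 in the authors' deposited table.

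**Figure D3:**
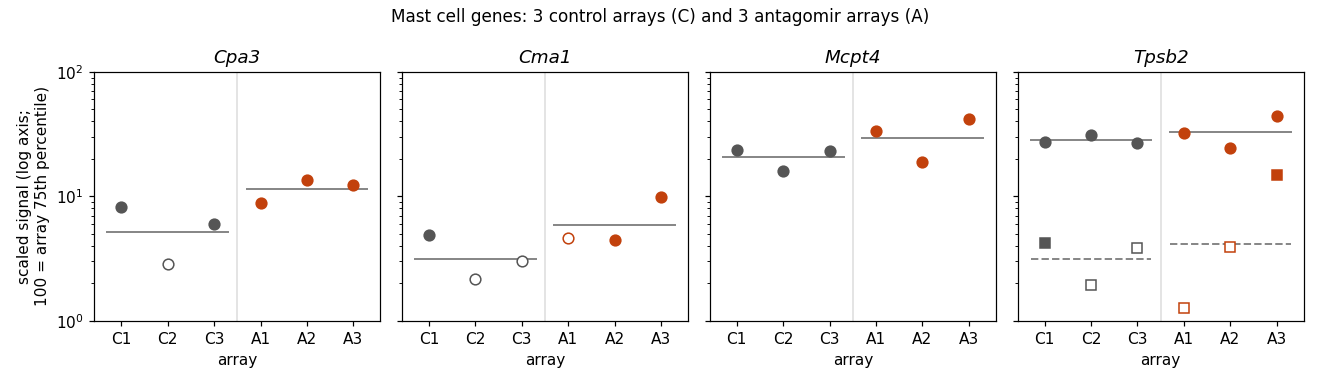
Scaled signal on a log axis (100 is the array's 75th percentile) of the 4 mast cell genes on control arrays C1 to C3 (grey) and antagomir arrays A1 to A3 (orange). Open points are not well above background, squares are the second Tpsb2 probe, and horizontal lines are geometric means of a group (dashed for the second probe). Cpa3 is the gene without overlap, from 2.85 to 8.28 on the controls and from 8.78 to 13.5 with the antagomir. Of all genes tested, 8.78% had no overlap in this direction.

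**Figure D4:**
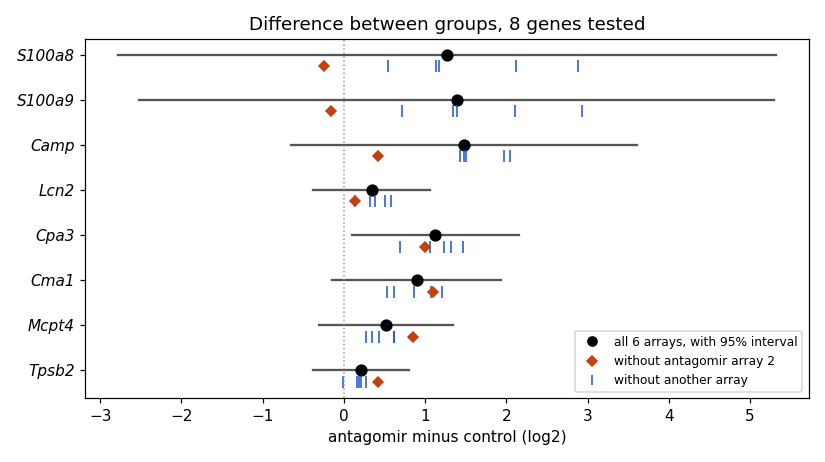
Antagomir minus control on the log2 scale for the 8 genes tested, with the 95% interval from limma (black) and, just below each, the difference with 1 array left out. Without antagomir array 2 (orange diamonds) S100a8 and S100a9 move to -0.25 and -0.16, and Camp to 0.42. The interval of Cpa3, from 0.10 to 2.15, is the 1 that leaves out 0, before adjustment over all genes.

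Of 8 mast cell markers, 5 were tested, the 4 members and Kit, and they summed to 88.4 to 99.4 on the controls and 87.4 to 137 on the antagomir arrays. Ms4a2 and Fcer1a, chains of the receptor for immunoglobulin E, and the tryptase gene Tpsab1 were well above background on no array. Kit, the receptor for stem cell factor, differed by -0.50, a sign opposite to the granule proteases. It read 30.0, 47.4 and 29.2 on the controls and 19.9, 26.3 and 28.2 on the antagomir arrays. The groups did not overlap, as for 6.93% of all genes in this direction, and its unadjusted p was not under 0.05 (limma).

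Of 11 other mast cell proteases, 2 were tested. Cma2, a chymase gene, differed by 0.42 (-0.05 with median scaling) without overlap, as 8.78% of all genes did upward. Prss34, a tryptase-like protease, differed by 0.12 (-0.74 with quantile scaling). Gzmb, granzyme B, which cytotoxic lymphocytes also hold, was not tested but read 447 on antagomir array 2 against 1.55 to 4.86 on the other arrays, and was picked out after its values were seen.

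Of 30 other mast cell genes, 18 were tested, 7 above and 11 below 0 with a median of -0.07. At an unadjusted p under 0.05 there was 1 in each direction. Alox5, the first enzyme of leukotriene synthesis in many myeloid cells, read 331, 212 and 466 on the controls and 683, 578 and 497 on the antagomir arrays, with a difference of 0.86. Enpp3, a surface marker of basophils and mast cells, was at -0.55 with no overlap, as 6.93% of all genes were in this direction. Cd63, a granule membrane protein found in most cells, was at -0.34.

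Genes that support mast cells gave 4 of 8 tested above 0, with a median of 0.29. Il33, an alarmin that activates mast cells, read 280, 337 and 232 on the controls and 89.4, 200 and 54.5 on the antagomir arrays. Its difference was -1.50 (SE 0.48, limma, adjusted p = 0.655) without overlap, as 6.93% of all genes were in this direction. Ccl11, eotaxin, was at 1.91 and Tslp at -0.26. Ccl5, a chemokine of activated T cells, was at 1.56 and read 4549 on antagomir array 2 against 28.8 to 89.3 on the other arrays, and the difference was -0.73 without that array.

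Genes whose pattern was most like the members were sought among 5337 tested genes with a range of at least 1 on the log2 scale, by Pearson's r over the 6 arrays with the mean centred level of the members. Any such r describes 6 points that share their arrays. The 5 highest for the neutrophil profile were Slamf8, a receptor of activated macrophages (0.98), Crtam, a receptor of cytotoxic lymphocytes (0.97), Chil3, a chitinase-like protein of macrophages and neutrophils (0.97), Bmp7, a growth factor (0.96), and Retnlg (0.96). In all, 73 genes reached 0.9. Slamf8 read 11.1, 6.70 and 8.25 on the controls and 5.56, 145 and 17.1 on the antagomir arrays.

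For the mast cell profile the 5 highest were Kremen2, A330069E16Rik, Spata2l, Prp2 and Glyctk, with r from 0.98 to 0.99, and 206 genes reached 0.9. None of these 5 is on the mast cell lists used here. Kremen2, a receptor of the Wnt inhibitor Dickkopf, read 9.02, 4.76 and 7.57 on the controls and 11.3, 10.0 and 22.6 on the antagomir arrays. Like Cma1 and Mcpt4 it was lowest on control array 2 and highest on antagomir array 3.

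Since S100a8 and S100a9 kept the same order over the arrays, their promoters are shown, 250 bases before the start of the gene from RefSeq (GRCm38.p6), on the strand of the gene. S100a8 lies on the plus strand at chr3:90668821-90669070 and S100a9 on the minus strand at chr3:90695722-90695971. Capitals mark matches on either strand to short motifs of factors that act in myeloid or mast cells and to the TATA box: TTGCNNAA for C/EBP, GAGGAA for PU.1, AGATAA for GATA factors, CATGTG for MITF and TATAAA.

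S100a8 promoter: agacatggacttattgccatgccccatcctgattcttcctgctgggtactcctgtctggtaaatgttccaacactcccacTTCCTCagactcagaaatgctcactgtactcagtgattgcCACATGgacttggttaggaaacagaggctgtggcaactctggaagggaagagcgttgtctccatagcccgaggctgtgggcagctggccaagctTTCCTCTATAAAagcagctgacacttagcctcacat

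S100a9 promoter: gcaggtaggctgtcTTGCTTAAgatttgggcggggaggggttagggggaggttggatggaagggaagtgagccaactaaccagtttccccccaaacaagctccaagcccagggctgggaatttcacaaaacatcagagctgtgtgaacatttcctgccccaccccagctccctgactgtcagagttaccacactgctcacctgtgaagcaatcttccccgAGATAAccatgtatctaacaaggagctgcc

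The S100a8 window has 2 PU.1 matches, at 170 and 36 bases before the start, the second directly followed by a TATA box match at 30 bases, and a MITF match at 130 bases. The S100a9 window shares none of these and has a C/EBP match at 236 bases and a GATA match at 30 bases. Of the 9 members, 8 had a promoter entry. C/EBP matches occur in the windows of Ngp, with 2, Lcn2 and S100a9, but not of S100a8 or Camp, and in 9.56% of all 32851 promoters. None of the 3 mast cell genes with an entry had one, as is the case for most promoters. Among the members with an entry, MITF matched only in S100a8, a neutrophil gene. The PU.1 motif occurs in 23.3% of all promoters, the GATA motif in 9.99%, the MITF motif in 12.3% and the TATA box in 12.4%. Cpa3 has a GATA match at 46 bases and TATA box matches at 242 and 31 bases, and Mcpt4 has a TATA box match at 32 bases. A match describes letters only.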

How the data were processed

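Total RNA of 6 heart samples was hybridised to 1-colour Cy3 arrays, 3 per group. Scanner files were deposited as written by Agilent Feature Extraction 10.7.1.1, per the file headers. They hold each spot's processed signal as an intensity, already corrected for background by that software. They also hold the mean and background intensities of a spot, used for normexp, and flags, which are 0 or 1. The table deposited by the authors has intensities and normalised log2 values. Once sorted, its log2 columns differ by at most 0.00143. Their method is not given in the sources used here. They read as log2 levels that are not centred by gene, with a median of 4.99 in each column. The 6 flag columns of that table were not used.

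Outlier and control spots were left out, spots of 1 probe averaged as log2, and each array's 75th percentile subtracted. Probes well above background on at least 3 arrays were tested, the probe with the highest mean standing for its gene, with limma 3.58.1 (R 4.3.3; 2-sided, Benjamini-Hochberg over 22989 genes). A permutation of 3 against 3 cannot go below p = 0.1. Precision is limited by the number of arrays. The steps were tested on simulated data.

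Members and lists were chosen with earlier results of these data known. Named genes are the members, up to 4 genes with the smallest p of each list, cell markers, and the 5 genes most like each profile. Genes from outside this rule are said to be picked after their values were seen. The 14 kinds of alternative were other scalings and background correction, the authors' table, other filters, other probe summaries, other models, blocks by replicate number and slide row, and each array left out. Tables were written with pandas 2.3.3 and numpy 2.4.6 in Python 3.11.15, and plots with matplotlib 3.10.9.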

Additional observations from a re-analysis of the deposited data

How the results depend on the processing

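Over 149 values of the 8 tested members under 19 alternatives, 138 kept the sign and 11 did not, and 0 passed the adjusted threshold (adjusted p from 0.424 to 1.000, limma). The signs that turned were S100a8 at -1.48 and S100a9 at -1.12 with array weights, and -0.25 and -0.16 without antagomir array 2 (2.88 and 2.93 without antagomir array 1). Lcn2 turned to -0.13 with median scaling and -0.12 with slide row as a block, where control arrays 1 and 2 fill row 1 alone and control array 3 is left against the antagomir arrays. Tpsb2 turned to -0.26 with median scaling and -0.015 without antagomir array 3, its leave-one-out values reaching 0.42. Cma1 turned to -0.016 with quantile scaling, with or without normexp, and to -0.018 in the authors' deposited table. The median of the neutrophil members turned to -0.43 with array weights and -0.0095 without antagomir array 2, with leave-one-out values up to 2.46. Neutrophil members above 0 numbered 4, with 3 for median scaling and for slide row as a block, 2 for array weights and 5 for no filter. Leaving out each array gave 2 to 4. Mast cell members above 0 numbered 4, and 2 where all 6 arrays had to be above background, since 2 were then tested. They numbered 3 with quantile scaling, with or without normexp, with median scaling and in the authors' deposited table. The count was also 3 where all 3 arrays of a group had to be above background, and leaving out each array gave 3 to 4. The cause of the other changes was not tested.

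Genes past the threshold over all genes numbered 3, and 1 with quantile scaling, 0 with normexp and quantile scaling, 199 with median scaling (34 higher and 165 lower, against 3 higher and 0 lower), 1 in the authors' deposited table, 1 with no filter, 0 with all 6 arrays above background, 6 with every probe by itself, 8 with array weights, 0 with the replicate block, 0 with slide row as a block and 0 to 3 with each array left out. At an unadjusted p under 0.05 the counts of 0 go with 1871 genes for normexp, 1589 for all 6 arrays, 2271 for the replicate block, 307 for slide row, and 1207, 911 and 1771 without control arrays 1, 2 and 3. With quantile scaling the median of all genes was -0.03. Same-numbered arrays deviated together with correlations of 0.22, 0.14 and -0.05 across genes, and control array 3 was most like antagomir array 1 (0.17). Correlations this weak cannot decide whether the numbers pair the samples. No member was called with or without the replicate block. With it the unadjusted p (limma) went from 0.172 to 0.045 for Mcpt4 and from 0.036 to 0.069 for Cpa3. Among the members, signal near background limits Ngp, Cma1 and Cpa3.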
